A study of Mus musculus with 4 samples.

Results

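The genes described here are 10 regulators and lipid handling genes of the fat cell programme, measured in primary cultured mouse mesenchymal stromal cells (MSCs) after knockdown of Islr. They were named as a list, with earlier results of these data known. The list holds the transcription factor genes Zfp423, Cebpb, Cebpd, Cebpa and Pparg, and the lipid handling genes Fabp4, Fabp5, Plin2, Plin4 and Lpl. A probe belonged to a gene if its RefSeq accession led to that symbol, which gave 13 probes for the 10 genes, of 28026 named probes for 21154 genes on the array. Islr encodes Meflin, a membrane and secreted protein with leucine-rich repeats and an immunoglobulin domain that is known as an MSC marker. Islr knockdown cells carried 1 of 3 retroviral short hairpin RNAs with different target sequences in Islr (hairpins 1, 2 and 3, 1 array each), and control cells carried a control hairpin (1 array). All were primary MSCs at passage 5, and the labels name no differentiation medium, mouse strain or age. No label states whether separate cell preparations were used for the 4 cultures, so the spread between hairpins is a spread between 3 samples and may be partly technical.

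Adipogenesis is the path by which a stromal progenitor becomes a lipid-storing fat cell. In mouse cells the zinc finger factor ZFP423 marks committed preadipocytes, C/EBPβ and C/EBPδ act early after a hormonal stimulus, and PPARγ and C/EBPα then maintain each other and switch on lipid uptake and storage genes. Uncommitted MSCs can follow this path or become bone or cartilage cells.

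Values are the processed signal of the scanner software, a background-subtracted fluorescence intensity on a linear scale. A difference is the log2 signal of a hairpin array minus that of the control array, each first divided by its array's 75th percentile, and means are given ± SD over the 3 hairpins. Between 49.4% and 53.8% of features were well above background on the hairpin arrays and 50.9% on the control array, no feature was saturated, and all 4 arrays shared 1 slide and 1 scan time. Islr itself had signals of 11 and 3.44 on hairpins 1 and 3, not above background, and 70.5 on hairpin 2, against 454 on the control array. It was at least 20.5-fold lower on hairpin 1, 6.33-fold lower on hairpin 2 and at least 29.6-fold lower on hairpin 3, where a bound is set against the lowest signal called above background on that array. All 12 stromal markers looked up (among them Pdgfra, Thy1 and Col1a1) were well above background on every array, with a summed level of 1081 to 1240 times the 75th percentile on the hairpin arrays and 1281 on the control array. Single markers within this sum differed both ways, with Thy1 at 1.68, 0.91 and 0.77 on hairpins 1 to 3. Pdgfra was at -0.10, -1.15 and -1.17.

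All 10 genes were well above background on all 4 arrays. The test was limma across the 13565 named genes that passed a filter on dim probes, 3 hairpin arrays against 1 control array, with Benjamini-Hochberg adjustment over all of them. None of the 10 genes passed at an adjusted p of 0.05 (the smallest was 0.964) or at an unadjusted p of 0.05. In 5 of 12 alternative settings some did pass the unadjusted threshold, namely Pparg and Cebpd without hairpin 2, and Fabp5 without hairpin 1, with normexp, with the filter on all 4 arrays and with an eBayes trend. Over all genes limma called 0 higher and 47 lower (0.346% of those tested), and 1.52% and 3.31% were higher and lower at the unadjusted p. The 47 were all below background on each hairpin array. With 1 control array, the fit takes the spread between hairpins for that of the control.

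The fat cell regulator Pparg, the early regulator Cebpd and the lipid carrier gene Fabp5 had the largest mean differences of the 10, at 1.35 ± 0.76, 1.15 ± 1.30 and 1.11 ± 0.51 (n = 3). These are 2.54-fold, 2.21-fold and 2.16-fold by the mean. By the size of the mean difference in either direction, 2.60%, 3.45% and 3.60% of all genes tested lay farther from 0 than these genes. Fabp4 (0.72 ± 0.82) and Plin4 (0.36 ± 0.90) had means below their spread. Cebpa, Cebpb, Plin2 and Lpl lay within 0.25 of 0 by the mean, as 59.9% of all genes did, and Zfp423 was at -0.27 ± 0.48. Over the 10 genes, hairpins 1, 2 and 3 had median differences of 0.28, 0.11 and 0.63, against medians over all genes of -0.0056, 0.0025 and 0.051.

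**Figure D1:**
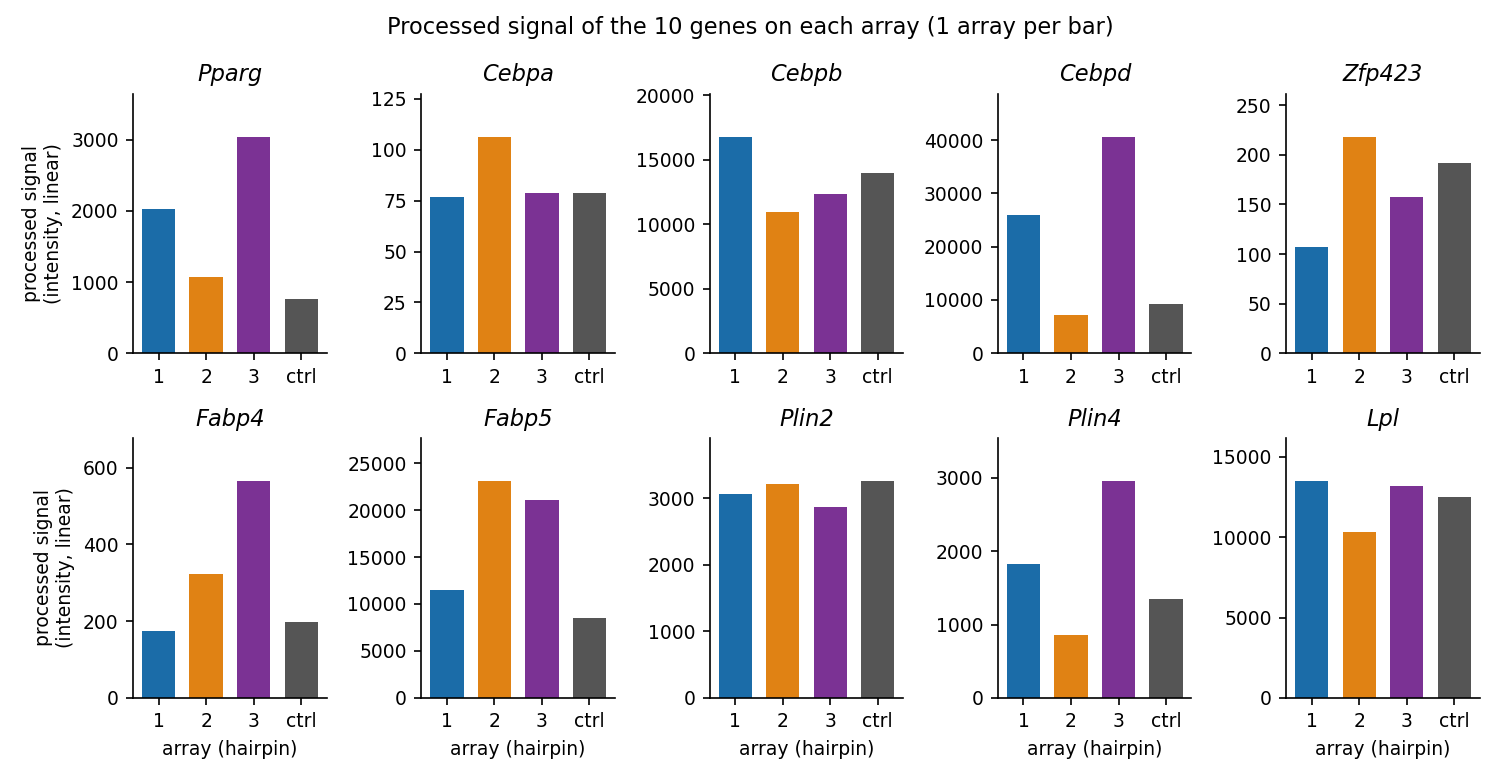
Processed signal (linear intensity, from 0) of the 10 genes on the arrays of hairpins 1, 2 and 3 and of the control hairpin, 1 bar per array and 1 panel per gene, with its own axis. Pparg was above the control on all 3 hairpins (1078 to 3040 against 765), whereas Cebpd, Plin4 and Lpl were above it on hairpins 1 and 3 and below it on hairpin 2.

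Zfp423 encodes a zinc finger factor known to commit mouse progenitors to the preadipocyte state, and 3 probes measured it (chromosome 8). The brightest, A_55_P2102335, had signals of 107, 218 and 157 on hairpins 1 to 3 and 192 on the control array, so hairpin 2 lay above the control and the other two below it. A_51_P328442 had 97.9, 134 and 107 on hairpins 1 to 3 and 133 on the control array, with hairpin 2 at the level of the control. A_55_P2148921 had 81.8, 107 and 85.1 on hairpins 1 to 3 and 193 on the control array, so that all 3 hairpins lay below it. The probes' mean differences were -0.27 ± 0.48, -0.20 ± 0.20 and -1.04 ± 0.18. Only A_55_P2148921 was lower on all 3 hairpins, and it was 2.21-fold, 1.77-fold and 2.22-fold lower on hairpins 1 to 3. All 3 probes are designed against the same transcript accession, NM_033327, and the files do not place them within it. The direction on hairpin 2 therefore differed between probes, and the mean over the 3 probes was -0.50, against -0.27 for the brightest.

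**Figure D2:**
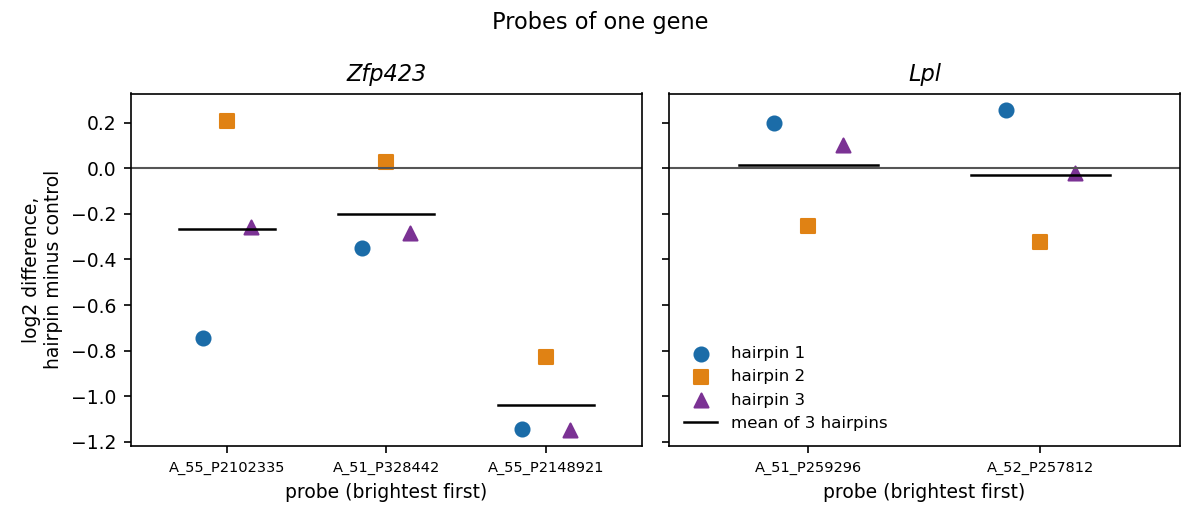
Log2 difference of each hairpin array from the control array for the 3 probes of Zfp423 and the 2 probes of Lpl, with symbols for hairpins 1, 2 and 3 and a black line at their mean. The Zfp423 probe A_55_P2148921 lies at -0.83 to -1.15, and the other 2 probes lie between -0.75 and 0.21. The Lpl probes lie between -0.32 and 0.26.

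C/EBPβ is a leucine zipper factor that acts at the start of adipogenesis. The Cebpb signal (chromosome 2, probe A_55_P2165869, NM_001287738) was 16767, 10958 and 12307 on hairpins 1 to 3 and 13970 on the control array. Hairpin 1 was above the control and hairpins 2 and 3 were below it, and the mean difference was -0.041 ± 0.36 (95% confidence interval -0.92 to 0.83, limma).

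C/EBPδ, its early partner, is also an acute phase factor. The Cebpd signal (chromosome 16, probe A_51_P444447, NM_007679) was 25905, 7252 and 40605 on hairpins 1 to 3 and 9206 on the control array. Hairpins 1 and 3 stood 3.00-fold and 4.50-fold above the control, while hairpin 2 was 1.25-fold below it. The hairpins themselves spanned 5.62-fold, the widest range among the 10 genes, and a range above 1 on the log2 scale was seen in 4 of the 10 and in 11.8% of all genes. The mean of 1.15 was smaller than the SD of 1.30 (limma adjusted p = 0.964). Without hairpin 2 the mean was 1.88, and without hairpin 3 it was 0.63.

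PPARγ is the nuclear receptor required for fat cell formation and the target of the thiazolidinedione drugs. The array carries 10 spots of the Pparg probe (chromosome 6, A_51_P106799, NM_011146), so its error within an array can be read. The spots ranged between 1904 and 2088 on hairpin 1, between 1015 and 1139 on hairpin 2 and between 2926 and 3172 on hairpin 3, against 726 to 802 on the control array. The spot ranges of the 4 arrays did not overlap. The SD between spots was 0.042 to 0.056 on the log2 scale on the hairpin arrays and 0.052 on the control array, and over the 208 brighter probes with 10 or more spots the median SD was 0.060 to 0.063 on the hairpin arrays and 0.057 on the control array. Averaged over spots, Pparg was 2.83-fold, 1.43-fold and 4.06-fold higher on hairpins 1 to 3. The difference between hairpins was thus larger than the spot error, and spots of 1 array are not replicates of a culture. Over the hairpins the limma interval of the mean difference ran from -0.30 to 2.99 (adjusted p = 0.964). Leaving out hairpin 2 gave a mean of 1.76, and leaving out hairpin 3 gave 1.01.

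Pparg and Cebpd had the same order of arrays, hairpin 3 above hairpin 1 above hairpin 2, and so did Plin4. That order was found in 3 of the 10 genes and in 20.1% of all genes. Hairpin 2 was the lowest of the 3 hairpins in 5 of the 10 genes (Pparg, Cebpb, Cebpd, Plin4 and Lpl) and in 33.3% of all genes. Hairpin 2 was also the one hairpin array on which Islr remained above background, and with 1 array per hairpin a relation between the level of Islr and these genes was not tested.

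C/EBP factors are known to act on the Pparg gene during fat cell formation, so RefSeq promoter sequence (GRCm38.p6) is shown as background. Of the C/EBP genes among the 10, Cebpd shared the order of arrays of Pparg, and Cebpa and Cebpb did not. Plin4 is shown because it also had that order. RefSeq windows were matched for 6 of the 10 genes, with 9 start sites in all. The 250 bases before a start are printed 5′ to 3′ on the gene's strand, with capitals at matches to the C/EBP core TTGCNNAA, the nuclear receptor half-site AGGTCA, the direct repeat of that half-site with 1 free base between the copies, the CCAAT box, the GC box GGGCGG and the sequence TATAAA on either strand. Matches of different motifs may overlap, and each direct repeat match holds 2 AGGTCA matches. Start 1 and start 3 of Pparg and the start of Plin4 are given. Start 3 of Pparg lies at the first exon of the fat-cell-enriched isoform in mouse.
Pparg, start 1, chr6:115360894-115361143, plus strand: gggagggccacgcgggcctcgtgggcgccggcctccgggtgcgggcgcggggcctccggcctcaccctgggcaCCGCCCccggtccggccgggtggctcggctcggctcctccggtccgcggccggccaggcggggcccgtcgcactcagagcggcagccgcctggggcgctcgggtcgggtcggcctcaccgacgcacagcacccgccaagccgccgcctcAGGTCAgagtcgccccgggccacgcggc
Pparg, start 3, chr6:115421816-115422065, plus strand: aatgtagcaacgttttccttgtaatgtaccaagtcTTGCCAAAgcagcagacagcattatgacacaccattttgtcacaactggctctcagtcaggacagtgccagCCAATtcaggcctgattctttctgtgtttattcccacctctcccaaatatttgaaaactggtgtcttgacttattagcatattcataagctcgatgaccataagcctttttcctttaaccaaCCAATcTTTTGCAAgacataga
Plin4, chr17:56109783-56110032, minus strand: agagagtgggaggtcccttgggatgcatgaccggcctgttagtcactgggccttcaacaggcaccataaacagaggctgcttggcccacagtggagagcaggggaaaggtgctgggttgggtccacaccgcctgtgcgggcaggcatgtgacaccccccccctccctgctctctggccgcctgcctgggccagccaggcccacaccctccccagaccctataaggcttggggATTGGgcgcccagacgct

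The window of Pparg start 3 held 2 matches to the C/EBP core, which begin 215 and 16 bases before the start, and 2 CCAAT matches at 144 and 22 bases. Its GC content was 40.8%. The window of start 1 had a GC content of 82.4%, 1 half-site match 28 bases before the start, 1 GC box match and none to the C/EBP core. The window of start 2, which is not printed, had a GC content of 63.6% and also no match to the C/EBP core. It held a half-site match 9 bases before the start, a TATAAA match at 29, a CCAAT match at 83 and GC box matches at 127 and 210. The Plin4 window held 1 CCAAT match, read on the other strand, 18 bases before the start. Among the 32851 RefSeq windows of this length, 9.56% held the C/EBP core, 14.0% the half-site, 33.8% CCAAT, 32.7% the GC box and 12.4% TATAAA. The direct repeat was found in 0.0335% of windows and in none of the 9 windows of these genes. Among these 9, the C/EBP core was also matched in the window of Zfp423 start 1, 131 bases before the start. These matches describe letters in the windows, and the array gives no reading of binding or of which Pparg start was used.

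C/EBPα, the later partner of PPARγ in mature fat cells, did not share that order. The Cebpa signal (chromosome 7, probe A_52_P168567, NM_007678) was 76.8, 106 and 78.8 on hairpins 1 to 3 and 78.6 on the control array. Only hairpin 2 stood apart from the control, at 1.38-fold, and the mean difference was 0.18 ± 0.24 (limma interval -0.50 to 0.87). Without hairpin 2 the mean was 0.047.

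Among the lipid handling genes, Fabp5 and Fabp4 encode small cytosolic carriers of fatty acids. Fabp5, the epidermal type (chromosome 3, probe A_55_P1953387, NM_001272097), had signals of 11496, 23059 and 21066 on hairpins 1 to 3 and 8490 on the control array. All 3 hairpins were above the control, by 1.44-fold, 2.76-fold and 2.53-fold, and hairpin 1 was the nearest to it. The limma interval of its mean difference of 1.11 ran from -0.040 to 2.26 (adjusted p = 0.964). A pseudogene, Fabp5l2, is listed in RefSeq, and binding of its transcripts to the Fabp5 probe was not tested.

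Fabp4, the fat cell type that macrophages and endothelial cells also make (chromosome 3, probe A_51_P336833, NM_024406), had signals of 173, 323 and 564 on hairpins 1 to 3 and 198 on the control array. Hairpin 1 was slightly below the control, hairpin 2 was 1.65-fold and hairpin 3 was 2.90-fold above it. The hairpins spanned 3.12-fold, and the mean without hairpin 3 was 0.31. In RNA from whole cultures, more cells of a type and more RNA per cell cannot be told apart. Of 11 macrophage markers, 5 were above background on every array (Cd68, Csf1r, Itgam, Cd14 and Fcer1g), with a summed level of 28.6, 23.8 and 18.1 times the 75th percentile on hairpins 1 to 3 and 26.8 on the control array. Ptprc, Adgre1, Lyz2, Fcgr1, Mrc1 and Tyrobp were below background on all 4 arrays. Of 7 endothelial markers the summed level was 7.68 to 8.36 on the hairpin arrays and 8.22 on the control array, and Cdh5, Emcn, Tek and Tie1 were below background on all 4. Most of that sum was Kdr, with signals of 3303, 3251 and 3357 on hairpins 1 to 3 and 3532 on the control array. Pecam1 had 58, 52.8 and 55.6 on hairpins 1 to 3 and 59.3 on the control array. Kdr and Pecam1 were above background on all 4. Vwf stood at signals of 55.9, 16.6 and 188 on hairpins 1 to 3 and 21.5 on the control array, above background on hairpins 1 and 3. The part of such cells in the Fabp4 difference was not tested.

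Perilipins coat lipid droplets. Plin2, which is found on droplets of most cell types (chromosome 4, probe A_55_P1999648, NM_007408), had signals of 3066, 3221 and 2870 on hairpins 1 to 3 and 3256 on the control array. After scaling, no hairpin differed from the control by more than 1.11-fold, and the interval of the mean difference was -0.56 to 0.47 (limma). Plin4, enriched in white fat (chromosome 17, probe A_51_P495780, NM_020568), had signals of 1829, 862 and 2952 on hairpins 1 to 3 and 1346 on the control array. Hairpins 1 and 3 were 1.45-fold and 2.24-fold above the control and hairpin 2 was 1.54-fold below it, so the hairpins spanned 3.44-fold. The mean of 0.36 became -0.042 without hairpin 3 and 0.85 without hairpin 2.

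Lipoprotein lipase, encoded by Lpl, frees fatty acids from circulating triglyceride. Its brighter probe (chromosome 8, A_51_P259296, NM_008509) had signals of 13482, 10345 and 13185 on hairpins 1 to 3 and 12535 on the control array, and its dimmer probe, A_52_P257812, had 1423, 999 and 1227 on hairpins 1 to 3 and 1269 on the control array. Both probes put hairpin 1 above and hairpin 2 below the control. Their mean differences were 0.016 ± 0.24 and -0.028 ± 0.29, and the limma interval for the brighter probe was -0.67 to 0.70.

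**Figure D3:**
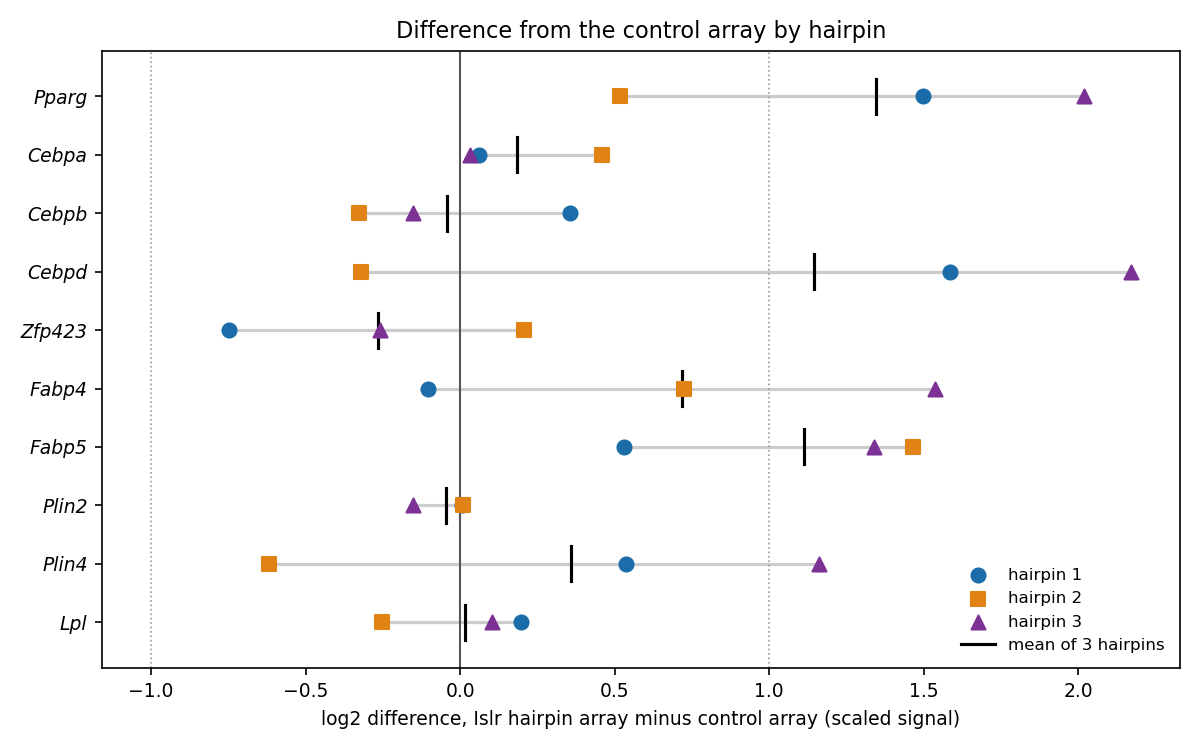
Log2 difference of each Islr hairpin array from the control array for the 10 genes, with symbols for hairpins 1, 2 and 3, a black tick at their mean and dotted lines at 2-fold. Pparg, Cebpa and Fabp5 lie above 0 on all 3 hairpins, and no gene lies beyond 2-fold on all 3.

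The counts in this paragraph use the brightest probe of each gene. The 10 genes were chosen with earlier results of these data known. Their counts beside the shares of all genes are therefore a description and no test of the list. Of the 10 genes, 3 (Pparg, Cebpa and Fabp5) were above the control on all 3 hairpins after scaling, against 27.6% of all genes, and 0 were below it on all 3, against 24.6%. The control array enters each of the 3 differences, so an error in it moves them together. With the series table's scaling, Cebpa was not among them, since its difference on hairpin 3 is close to 0. No gene of the 10 was at least 2-fold higher or lower on all 3 hairpins, which 0.236% and 1.69% of all genes were. On single hairpins, with 1 array on each side and no test, 2 of the 10 were at least 2-fold higher on hairpin 1 (Pparg and Cebpd, background 1.46%), 1 on hairpin 2 (Fabp5, background 1.88%) and 5 on hairpin 3 (Pparg, Cebpd, Fabp4, Fabp5 and Plin4, background 3.17%). None of the 10 was at least 2-fold lower on any hairpin, against 4%, 4.1% and 5.45% of all genes on hairpins 1 to 3. The Zfp423 probe A_55_P2148921, which was not the brightest, was 2.21-fold and 2.22-fold lower on hairpins 1 and 3. Without hairpin 2, on which both were lowest, Pparg and Cebpd were at least 2-fold higher on both remaining hairpins, as were 0.996% of all genes. Without hairpin 1, on which it was lowest, this held for Fabp5 and for 1.06% of all genes.

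**Figure D4:**
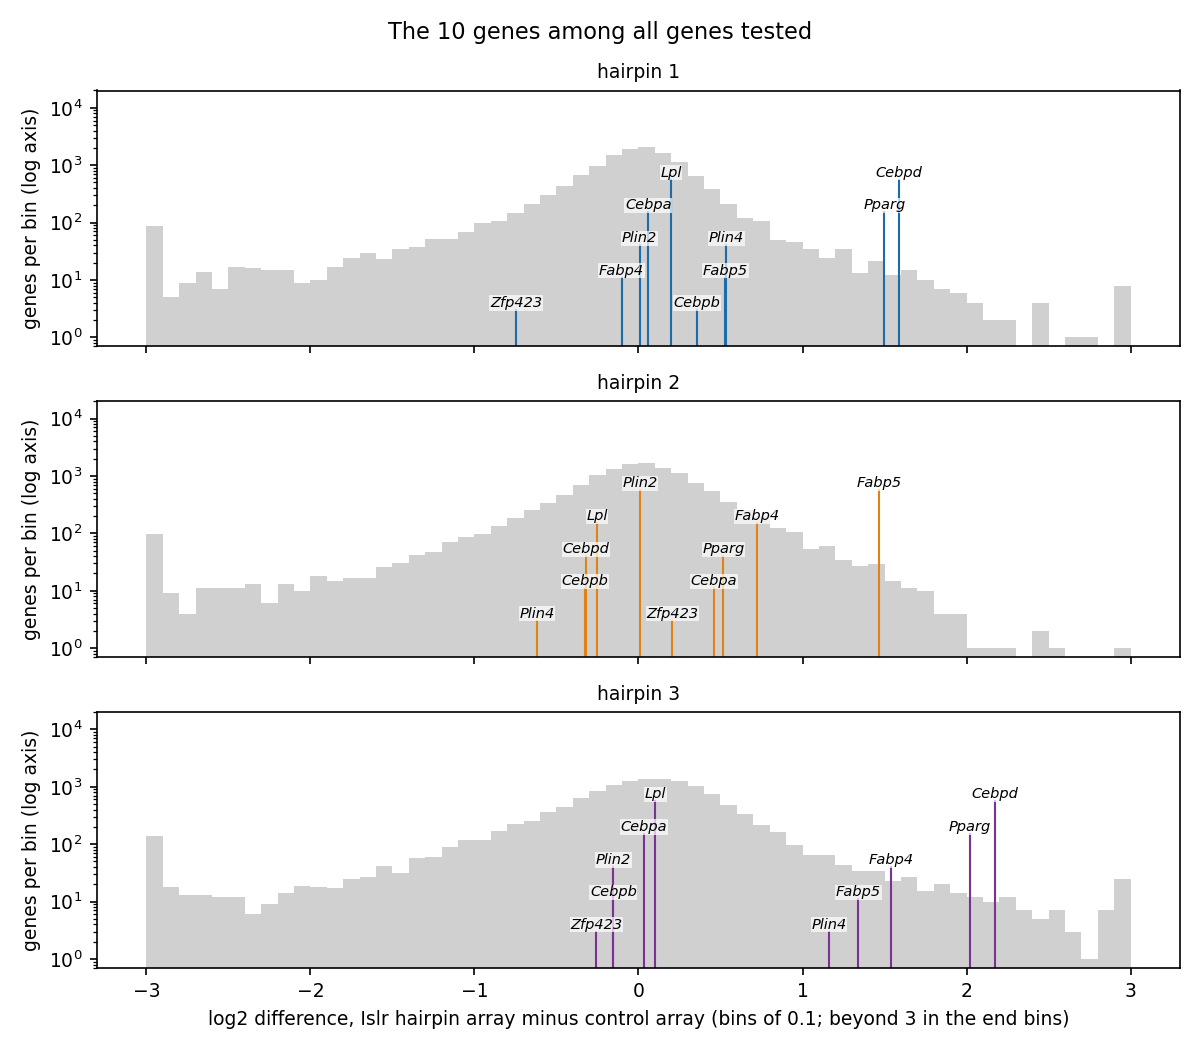
Distribution of the log2 difference from the control array over the 13565 genes tested (grey bars, number of genes per bin on a log axis), 1 panel per hairpin, with coloured lines at the 10 genes. On hairpin 3, Cebpd (2.17), Pparg (2.02), Fabp4 (1.54), Fabp5 (1.34) and Plin4 (1.16) lie in the right flank, and on hairpin 2 only Fabp5 (1.46) lies beyond 1.

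Genes nearest to Pparg in their 3 differences were sought among the 12716 genes above background on all 4 arrays, by the root mean square log2 distance. They were Pik3r5 (distance 0.14), Dok3 (0.21), U90926 (0.25) and Krt7 (0.26). Of the other 9 genes described here Cebpd was the nearest to Pparg, at 0.49 and rank 33, followed by Fabp5 at 0.88 and rank 250. The genes nearest to Lpl were Hivep2 (0.0032), Zfp729a (0.021), Rims1 (0.023) and Slc66a1 (0.026), and Cebpb stood at 0.18 and rank 1304. These distances rest on 3 differences that share 1 control array and carry no test.

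Related genes were read from 9 lists, and limma called none of their measured members in either direction. Over all genes tested, 27.6% were higher and 24.6% lower on all 3 hairpins, the shares beside which the list counts stand. Of the C/EBP family and its partners, 3 of 5 were measured and 2 were higher on all 3 hairpins. These were Cebpg, a partner without an activation domain, at 0.49 ± 0.19, and Atf4, the stress response factor, at 0.46 ± 0.28. Among the other FABP and perilipin genes, 7 of 9 did not pass the filter on dim probes, including Plin1. The heart type carrier gene Fabp3 had signals of 540, 330 and 972 on hairpins 1 to 3 and 751 on the control array, with hairpin 3 above and hairpins 1 and 2 below the control. Plin3 was at -0.18 ± 0.22.

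Of the PPAR and RXR receptors and coregulators, 16 of 17 were measured, and 1 was higher and 7 were lower on all 3 hairpins (27.6% and 24.6% of all genes). The list median was -0.12 (-0.25 without hairpin 1 and -0.049 without hairpin 3). The corepressor gene Nrip1, whose product restrains nuclear receptors, was among the lower, at -0.42 ± 0.14. Receptor and coactivator genes were also among the 7 lower genes. The coactivator gene Ppargc1a had signals of 276, 29.1 and 151 on hairpins 1 to 3 and 81.5 on the control array. Like Cebpd, Plin4 and the brighter Lpl probe, it was above the control on hairpins 1 and 3 and below it on hairpin 2. Its signal on hairpin 2 was near the lowest called above background on that array (19.1). Rxra, the partner receptor of PPARγ, was looked up after its values were seen and stood at -0.053 ± 0.37.

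Known PPAR target genes outside the 10 had list medians below 0 on each hairpin. Of 36, 27 were measured, and 2 were higher and 8 lower on all 3 hairpins (27.6% and 24.6% of all genes). The medians were -0.050, -0.20 and -0.16 on hairpins 1 to 3. The carnitine palmitoyltransferase gene Cpt1a, which admits fatty acids to the mitochondrion, was at -0.52 ± 0.23, and the fatty acid ligase gene Acsl3 at -0.49 ± 0.59. Apoe, the apolipoprotein gene, had signals of 271, 273 and 154 on hairpins 1 to 3 and 582 on the control array. It was at least 2-fold below the control on all 3 hairpins, with a mean of -1.32 ± 0.49 (limma adjusted p = 0.964). The sterol receptor gene Nr1h3 was above the control on hairpins 1 and 3 (0.88 and 0.98) and below it on hairpin 2 (-0.18).

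Of 46 genes of fatty acid uptake, storage and lipolysis, 42 were measured, with a median of -0.072. On all 3 hairpins 6 were higher and 9 lower (27.6% and 24.6% of all genes). G0s2, an inhibitor of triglyceride lipase, was at 1.07 ± 0.66, from dim signals of 36.6, 32.7 and 77.4 on hairpins 1 to 3 and 22.3 on the control array. Soat2, a cholesterol esterifying enzyme gene, was at 0.97 ± 0.65. The phosphatidate phosphatase gene Lpin1 was at -0.57 ± 0.26 and the lipoprotein receptor gene Lrp1 at -0.56 ± 0.59.

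Of 36 mature fat cell genes, 22 were measured, with medians of -0.15, 0.0030 and -0.32 on hairpins 1 to 3. On all 3 hairpins 1 was higher (the triglyceride lipase gene Pnpla2, 0.45 ± 0.41) and 6 lower, against 27.6% and 24.6% of all genes. Npr3, the natriuretic peptide clearance receptor gene, was at -0.93 ± 0.70 and the carboxylase gene Acacb at -0.52 ± 0.13. Lipe, the hormone-sensitive lipase gene, had signals of 36, 170 and 31.9 on hairpins 1 to 3 and 45 on the control array, and only hairpin 2 was above the control. Of 8 fat cell markers, Adipoq, Plin1, Cidec and Lep were below background on all 4 arrays, while Retn, Lipe and Slc2a4 were above it on all 4. The summed level of the 8 was 0.35, 0.58 and 0.26 times the 75th percentile on hairpins 1 to 3 and 0.35 on the control array.

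Factors listed here as favouring or as restraining adipogenesis were read side by side. The lists do not settle the role of a gene in these cells. Of 23 factors listed as favouring, 21 were measured, and 2 were higher and 2 lower on all 3 hairpins (27.6% and 24.6% of all genes). Their medians were 0.062, -0.15 and 0.10 on hairpins 1 to 3. Ebf2, a factor of brown preadipocytes, was at 0.56 ± 0.63 from signals near background, Nfia at -0.51 ± 0.48 and Egr2 at -0.46 ± 1.01. Of 33 factors listed as restraining, 31 were measured, and 6 were higher and 9 lower on all 3 (27.6% and 24.6% of all genes). Their medians were -0.044, -0.083 and -0.033 on hairpins 1 to 3. The median of their mean differences had the other sign, at 0.061. The zinc finger gene Zfp521, an antagonist of the adipogenic action of ZFP423 in mouse, had signals of 2637, 1609 and 1805 on hairpins 1 to 3 and 3405 on the control array. All 3 hairpins were below the control, by a mean of -0.74 ± 0.41. The ligand gene Wnt5b, whose role in adipogenesis was not tested, was below the control at -0.98 ± 0.32. Its signals were 353, 295 and 237 on hairpins 1 to 3 and 595 on the control array. The cartilage regulator gene Sox9 was above the control at 0.80 ± 0.66.

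Of 22 preadipocyte and progenitor genes, 15 were measured, with a median of -0.21. On all 3 hairpins 2 were higher and 6 lower (27.6% and 24.6% of all genes). The growth factor receptor gene Pdgfra was near the control on hairpin 1 (-0.10) and below it on hairpins 2 and 3 (-1.15 and -1.17), and Pdgfrb was at -0.59 ± 0.55. The surface marker gene Thy1 had signals of 4815, 2971 and 2686 on hairpins 1 to 3 and 1603 on the control array, above the control on all 3.

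**Figure D5:**
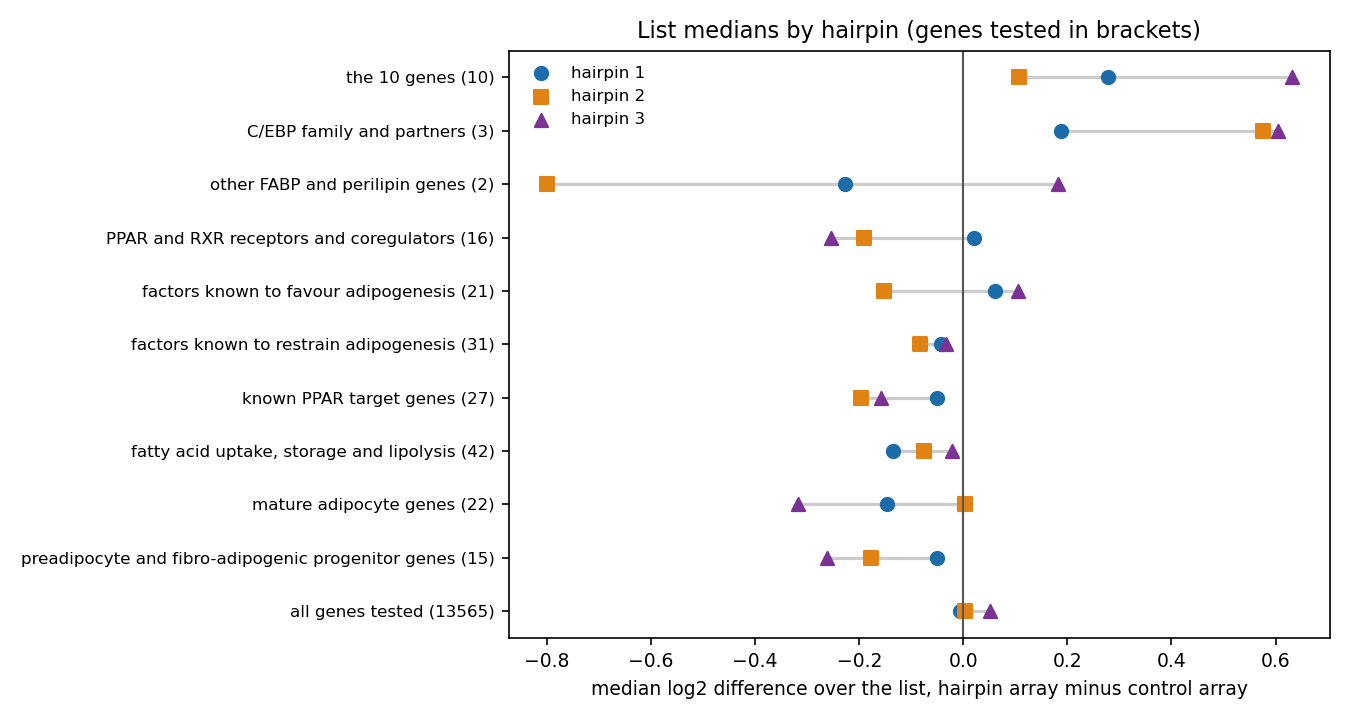
Median log2 difference from the control array over the 10 genes, over each of 9 lists of related genes and over all genes tested, with symbols for hairpins 1, 2 and 3 and the number of genes tested in brackets. The 10 genes lie at 0.11 to 0.63, and the known PPAR targets and the mature fat cell genes lie between -0.32 and 0.0030.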

How the data were processed

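Total RNA of the 4 cultures was column-purified and DNase-treated, and Cy3-labelled cRNA was made from 0.5 ug, per the labels' protocols. Per the file headers, the authors scanned 1-colour arrays (Agilent design 028005, grid build mm9) and used protocol GE1_1105_Oct12 of Feature Extraction 11.5.1.1. The deposited values used are its processed signal intensity, background-subtracted and detrended within an array. The deposited series table holds the same intensity times 1 constant per array (2.25, 2.08 and 2.02 for hairpins 1 to 3 and 2.10 for the control), and the choice of constants is not given in the sources used here.

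Each array's log2 75th percentile was subtracted from its log2 signals, and repeat spots of 1 probe were averaged. Probes were named through unversioned RefSeq accessions (28026 of 55681). Kept probes were well above background on all 3 hairpin arrays or on that of the control, and the brightest kept probe stood for a gene (3552 genes had several). limma 3.58.1 in R 4.3.3 (lmFit, eBayes, two-sided, Benjamini-Hochberg over 13565 genes, threshold 0.05) compared the hairpin arrays with the control. A run on simulated data checked only the size of the estimated differences. It gave all 4 arrays the same spread, so it cannot show what a control array of another spread does to the calls. The number of arrays limits the precision. Named genes are the 10 genes, Islr, up to 4 genes per list with the largest mean difference among those above background on all 4 arrays, marker genes and the 4 genes nearest to Pparg and to Lpl. A gene that this rule names is not reported here. The genes and lists were chosen with earlier results of these data known. Alternatives were 3 other scalings, normexp background correction (offset 50, on the median spot signal), 2 other filters, probe averaging, outlier removal, an eBayes trend and leaving out each hairpin.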

Additional observations from a re-analysis of the deposited data

How the results depend on the processing

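Under the 12 alternatives, limma called none of the 10 genes (smallest adjusted p 0.403, for Fabp5 without hairpin 1, unadjusted p = 0.0058) and no gene as higher, while an unadjusted p under 0.05 gave 160 to 350 genes higher and 266 to 550 lower. The 47 genes called lower became 75 with quantile normalization and 0 with normexp and quantile normalization, with no filter, with a filter on all 4 arrays, with an eBayes trend and without any 1 hairpin (0 to 0). A filter on all 4 arrays removes the 47 by its construction. The cause of the other changes was not tested. Pparg, Cebpa, Cebpd, Fabp4 and Fabp5 stayed above the control and Zfp423 below it in the mean in all 12, with Pparg between 1.01 and 1.76 and Zfp423 between -0.50 and -0.026. Lpl, near 0, turned to -0.039 with quantile normalization, -0.018 with normexp, -0.024 with the series table, -0.006 with the mean over probes and -0.076 to 0.15 without 1 hairpin. Without 1 hairpin, Cebpb ranged between -0.24 and 0.10, Plin2 between -0.073 and 0.0072, and Plin4 between -0.042 and 0.85. With the mean over probes, 1 of the 10 genes (Zfp423) was lower on all 3 hairpins. Without 1 hairpin, 4 to 6 of the 10 were higher on both remaining hairpins (32.3% to 37.8% of all genes), 0 to 1 lower (31.2% to 33%) and 0 to 2 at least 2-fold higher (0.398% to 1.06%). Of the 9 list medians, that of the factors listed as restraining adipogenesis moved by more than the spread over hairpins in 7 of the 12 settings. Its median of the genes' mean differences was 0.061, although its median on each single hairpin was below 0, and it became -0.019 with normexp, 0.021 with the series table, -0.006 with no filter, 0.028 with the filter on all 4 arrays and -0.045 to 0.12 without 1 hairpin. With no filter, the C/EBP list median was 0.16 and that of progenitor genes 0.039. Without 1 hairpin, the medians of PPAR targets ranged between -0.21 and -0.053 and those of lipid storage genes between -0.13 and -0.045. Other medians that moved by more than 1.5 times without 1 hairpin (range in brackets) were those of the 10 genes (0.14 to 0.43), of other FABP and perilipin genes (-0.51 to -0.023), of favouring factors (-0.043 to 0.026), of mature fat cell genes (-0.20 to -0.069) and of progenitor genes (-0.16 to -0.11). No paired analysis was possible because the control group has 1 array and its number pairs it with no hairpin. All 10 genes were well above background on the 4 arrays, so signal over background limits only related genes near it, such as Ebf2 and G0s2.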
